A study of Mus musculus with 6 samples.

Results

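Glutamate is the main fast excitatory transmitter of the spinal cord. The genes described here encode its receptors and the proteins that accompany or anchor them, 44 genes of the 53858 in the count table, chosen by gene name. They comprise 4 AMPA, 5 kainate and 7 NMDA receptor genes, 1 delta receptor gene, 6 metabotropic receptor genes, 8 auxiliary genes of AMPA receptors and 2 of kainate receptors. The scaffolds are 4 MAGUK genes, 3 Homer genes and 4 genes of the GRIP and SHANK families.

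All pools were picked from wild-type (WT) mice whose sciatic nerve had been crushed, with cells collected on day 6, so both groups were injured motor neurons of the spinal cord and there was no uninjured group. The dye DiO, given proximal to the injury on day 0, filled the injured neurons, and DiI, given at a distal site on day 2, marked those whose regrown axons arrived there first. Each of 6 libraries held poly(A) RNA of a pool of 10 to 15 fluorescent cells picked into a tube, 3 pools with DiO but not DiI (DiO-only) and 3 with both dyes (double-labelled). Nothing in the labels ties a pool to an animal of its own, so the p-values cover the spread among these 6 pools, which may be technical. In such pools, fewer cells of a type and less RNA per cell cannot be told apart.

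AMPA receptors are tetramers of GluA1 to GluA4 that carry the fast synaptic current, while NMDA receptors combine the obligatory GluN1 with GluN2 or GluN3 subunits and kainate receptors combine GluK subunits. Metabotropic receptors signal through G proteins. Auxiliary subunits steer trafficking and gating of the receptors, and scaffolds hold them in the postsynaptic density. The subunit mix matters in motor neurons because GluA2, once edited, keeps AMPA receptors nearly closed to calcium.

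The site of that editing lies in the pore loop. The coding sequences around it are shown for the 4 AMPA subunits. Between the groups, the shares of *Gria1* and *Gria3* in the AMPA level per kilobase did not overlap, and those of *Gria2* and *Gria4* did. Each line gives 45 bases, 5′ to 3′ on the coding strand, from GENCODE M21 on mm10, with the codon of the Q/R site in capitals.
Gria1: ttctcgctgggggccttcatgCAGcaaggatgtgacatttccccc
Gria2: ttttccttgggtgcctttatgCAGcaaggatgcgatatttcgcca
Gria3: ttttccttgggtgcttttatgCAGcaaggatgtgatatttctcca
Gria4: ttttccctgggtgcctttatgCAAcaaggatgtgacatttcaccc
These windows lie in coding exons at chr11:57243073-57243117 (plus strand, *Gria1*, exon 11 of 16), chr3:80706890-80706934 (minus, *Gria2*, exon 11 of 16), chrX:41610244-41610288 (plus, *Gria3*, exon 11 of 16) and chr9:4464116-4464160 (minus, *Gria4*, exon 12 of 17). Of the 45 bases, 36 in *Gria1*, 42 in *Gria3* and 39 in *Gria4* are the same as in *Gria2*. The codon is CAG in *Gria1*, *Gria2* and *Gria3* and CAA in *Gria4*. In *Gria2* the enzyme ADAR2, encoded by *Adarb1*, edits it in the RNA. Counts per gene do not measure the editing itself, and *Adarb1* stood at 110 ± 46.1 CPM (depth-scaled counts, here with library factors from TMM; SD, n = 3) in DiO-only and 107 ± 32.2 CPM in double-labelled pools. *Adarb1* is named for this role.

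Total counts ran from 2997714 to 6563403 per library, where 3 counts correspond to 1.00 and 0.457 CPM. All 10 motor neuron markers had counts, and their summed level overlapped between groups, 10104 to 18454 CPM (scaled to total counts) in DiO-only and 10492 to 14930 CPM in double-labelled pools. Glial markers differed more. All 12 oligodendrocyte markers had counts, with sums of 230 to 634 CPM in DiO-only and 1331 to 5620 CPM in double-labelled pools, and 8 of 11 tested were higher at an unadjusted p under 0.05. All 12 astrocyte markers had counts, with sums of 977 to 1099 and 999 to 2293 CPM, and 6 of 11 tested were higher at that level. Single astrocyte markers separated the pools more than their sum, most of which is *Aldoc* and *S100b*: 7, 6 and 8 of the 12 markers in double-labelled pools 1, 2 and 3 exceeded every DiO-only pool. Among 8 oligodendrocyte precursor markers *Gpr17* was at 0 in every library, and the sums were 4.27 to 27.7 and 27.7 to 52.4 CPM. The sums overlapped for excitatory interneuron markers (39.6 to 132 and 42.1 to 161 CPM), inhibitory interneuron markers (2.94 to 130 and 5.34 to 32.7 CPM), microglia (46.2 to 53.5 and 20.3 to 75.0 CPM) and endothelium and pericytes (6.15 to 48.3 and 1.67 to 9.90 CPM). Fewer genes had a count in double-labelled pools, 15657 to 16467 against 17229 to 22118.

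Most glutamate receptor genes stood higher in double-labelled pools. The smallest unadjusted p in edgeR were those of *Gria3*, *Shank1*, *Grin2a*, *Gria2* and *Grin3b*, whereas 3 of 4 MAGUK genes and *Homer1* had log2 fold changes near 0. The 44 genes together summed to 1217, 891 and 1186 CPM (scaled to total counts) in DiO-only pools 1 to 3 and to 1457, 1868 and 2115 CPM in double-labelled pools 1 to 3. The sums of the groups did not overlap. The filter on low counts kept 36 genes for the test and removed 8. Of these 36, 29 had a log2 fold change above 0 (double-labelled over DiO-only, as throughout), where 51.3% of all 12954 tested genes did, and the median was 0.65 against 0.02 over all tested genes. No gene passed the test: 0 of 36 had an edgeR adjusted p under 0.05, where 0.00% of all tested genes did, and DESeq2 and limma voom also called 0 of these genes. At an unadjusted p under 0.05 there were 8 higher genes and 0 lower ones, where the shares of all tested genes were 3.18% higher and 2.63% lower, 5.81% in all. Groups did not overlap for 7 higher genes and 1 lower, with backgrounds of 5.86% and 7.07%, 12.9% in all. The lower gene, *Homer2*, passed the filter only through the group in which it is high, so nothing is read from it. The genes were chosen with earlier results of these data known, so these counts describe the genes and are not independent evidence of a direction. The part of the glial and detection differences in these values was not tested.

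**Figure D1:**
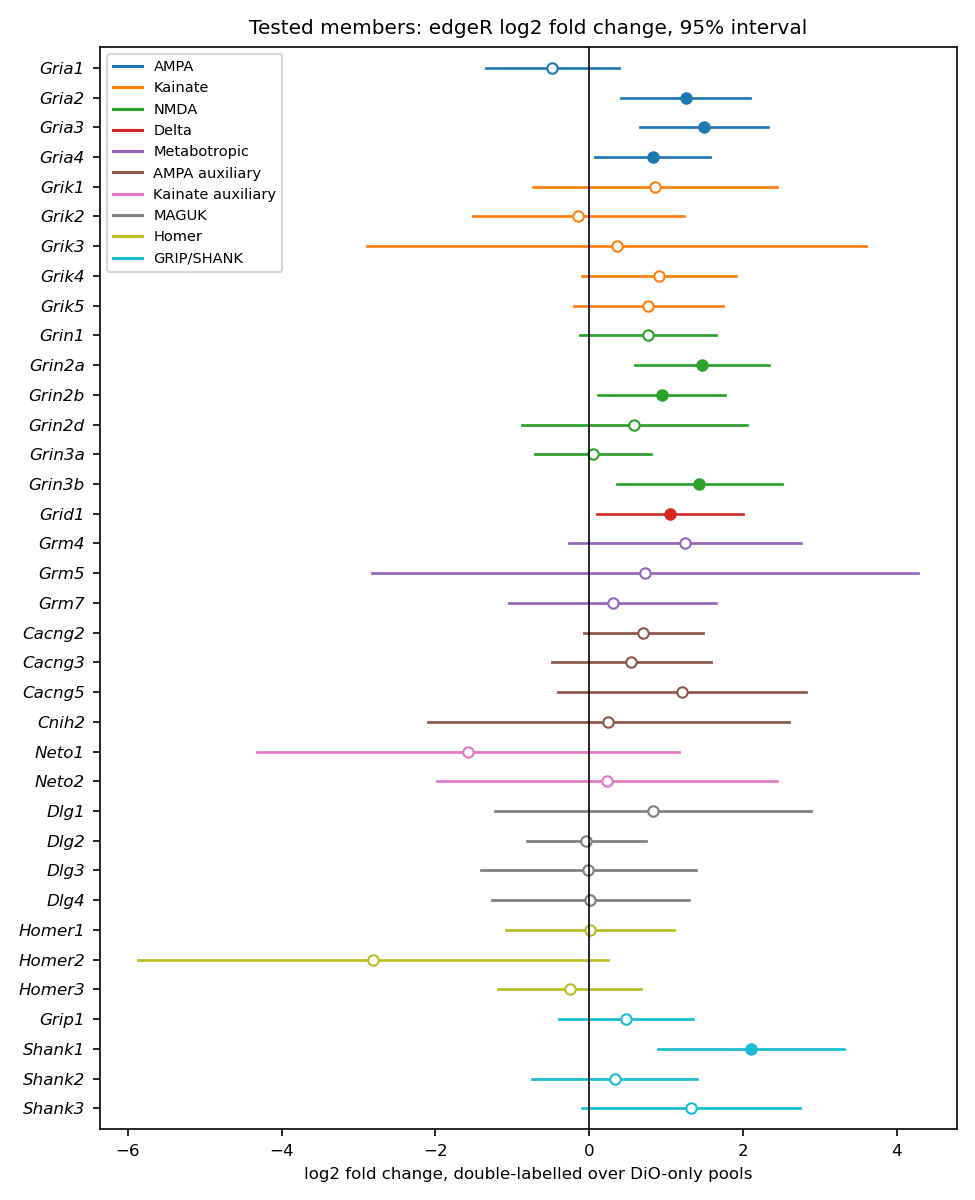
Log2 fold change of the 36 tested genes (x axis, double-labelled over DiO-only pools; points, edgeR estimate; lines, 95% interval; colours, class; filled points, unadjusted p under 0.05). The 8 filled points all lie to the right of 0, and the interval of every open point includes 0.

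**Figure D2:**
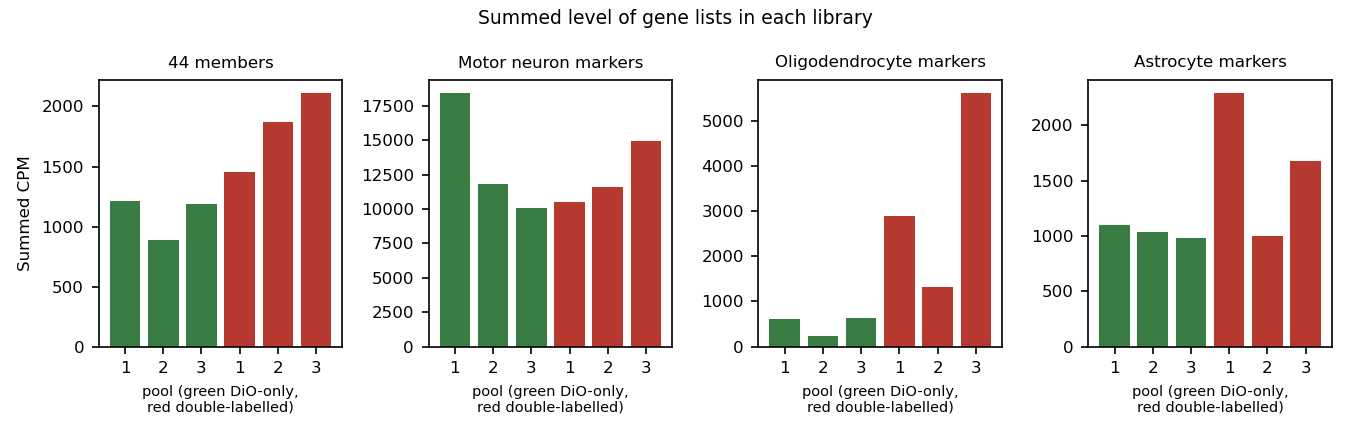
Summed CPM (y axis, scaled to total counts) of the 44 genes and of motor neuron, oligodendrocyte and astrocyte markers in each of the 6 libraries. The 44 genes and the oligodendrocyte markers separate the groups, and the motor neuron and astrocyte markers do not.

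The genes of GluA2, GluA3 and GluA4 had higher means in double-labelled pools and *Gria1* did not. *Gria3*, of GluA3 (ENSMUSG00000001986; mm10 chromosome X, 41400854 to 41678601, plus strand), stood at 66.5, 35.4 and 36.4 CPM in DiO-only pools 1 to 3 and at 117, 175 and 99.2 CPM in double-labelled pools 1 to 3. Every double-labelled pool exceeded every DiO-only pool. The log2 fold change was 1.50 ± 0.38 (SE; 95% interval 0.66 to 2.33; edgeR adjusted p = 0.486). *Gria2*, of GluA2 (ENSMUSG00000033981; minus strand of chromosome 3, 80681450 to 80802835), had 122, 49.4 and 70.1 CPM in DiO-only and at 187, 239 and 154 CPM in double-labelled pools. Its groups did not overlap either, with DiO-only pool 1 nearest to the other group (log2 fold change 1.26 ± 0.38, SE; edgeR adjusted p = 0.617). *Gria4*, of GluA4, a subunit with fast kinetics, stood at 90.9, 72.8 and 58.4 CPM in DiO-only and at 90.8, 152 and 152 CPM in double-labelled pools. Double-labelled pool 1 met the highest DiO-only pool, so the groups overlapped (log2 fold change 0.83 ± 0.34, SE; edgeR adjusted p = 0.775). *Gria1*, of GluA1, stood at 37.5, 29.1 and 34.2 CPM in DiO-only and at 29.6, 20.5 and 22.2 CPM in double-labelled pools, with overlapping groups and a log2 fold change of -0.48 (95% interval -1.34 to 0.39).

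Levels of different genes were compared only per kilobase of exon. The length is the union of all annotated exons, 15548 bases for *Gria2* and 6305 for *Gria4*, and not that of the transcripts expressed. Before this division *Gria2* had 4108 counts in all and *Gria4* had 3171, so their order depends on this scale. *Gria4* was the most abundant AMPA subunit on this scale, with 43.6 ± 5.47% of the summed AMPA level per kilobase in DiO-only and 41.2 ± 8.62% in double-labelled pools (SD, n = 3). The share of *Gria1* was 17.6, 20.8 and 24.5% in DiO-only pools 1 to 3 and 11.3, 5.59 and 7.71% in double-labelled pools 1 to 3. That of *Gria3* was 19.2, 15.5 and 16.0% and then 27.5, 29.3 and 21.1%. For these subunits the shares of the groups did not overlap, in opposite directions. The share of *Gria2*, the subunit that is edited, overlapped, at 18.5 ± 4.37% and 24.6 ± 3.56%. Shares of a whole are tied to each other and were not tested.

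**Figure D3:**
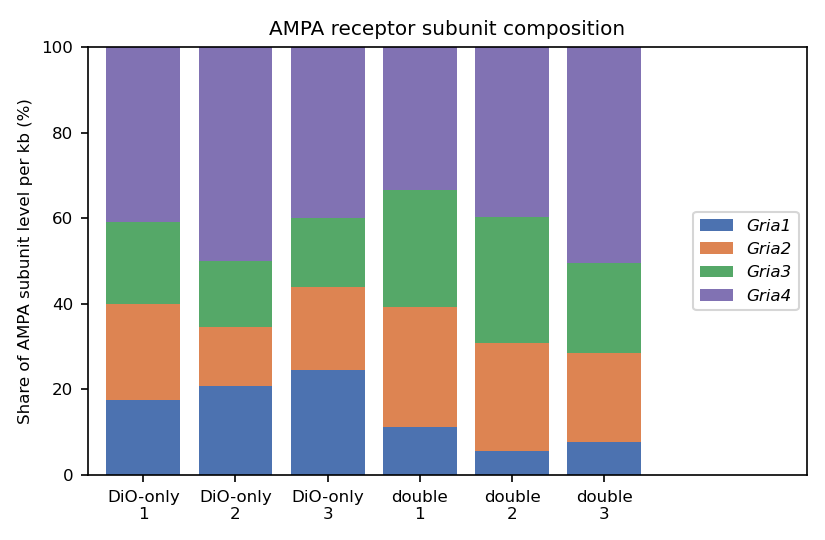
Share of each AMPA subunit gene in the summed AMPA level per kilobase of exon (y axis, percent) in each library (x axis). The *Gria1* segment is 17.6 to 24.5% in DiO-only and 5.59 to 11.3% in double-labelled pools, while *Gria4* is the widest segment in each library.

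Among NMDA receptor genes, *Grin2a* and *Grin2b*, of GluN2 subunits that set channel kinetics, had groups that did not overlap, and *Grin3b* had an unadjusted p under 0.05 with overlap. *Grin2a*, of GluN2A (ENSMUSG00000059003; minus strand of chromosome 16, 9567898 to 9995560), had 22.2, 24.1 and 15.6 CPM in DiO-only and at 42.3, 74.3 and 54.8 CPM in double-labelled pools. The groups were well apart, with a log2 fold change of 1.47 ± 0.40 (SE; 95% interval 0.60 to 2.34; edgeR adjusted p = 0.528). *Grin2b*, of GluN2B, stood at 25.5, 26.1 and 17.5 CPM in DiO-only and at 41.1, 48.7 and 43.0 CPM in double-labelled pools. Its double-labelled pools were close together and all above the DiO-only pools (log2 fold change 0.94 ± 0.38, SE; edgeR adjusted p = 0.757). *Grin2d*, of GluN2D, had overlapping groups, 9.71 ± 5.24 and 14.8 ± 5.82 CPM. *Grin2c*, of GluN2C, had 16 counts in all, 15 of them in double-labelled pool 1. Over *Grin2a* to *Grin2d*, *Grin2a* took 33.3 ± 11.0% of the level per kilobase in DiO-only and 43.0 ± 7.52% in double-labelled pools, with overlap.

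The obligatory subunit gene *Grin1* stood at 77.5, 66.8 and 109 CPM in DiO-only and at 70.1, 177 and 185 CPM in double-labelled pools. Double-labelled pool 1 lay inside the DiO-only range (log2 fold change 0.77, 95% interval -0.12 to 1.66). Its antisense gene *Grin1os* covers 13.5% of its exon bases and stood at 39.7 ± 11.4 and 71.5 ± 35.8 CPM, and the strand setting of the counting is not given in the sources used here. *Grin3b*, of GluN3B, a subunit known from somatic motor neurons, was the most abundant NMDA receptor gene per kilobase. Before division by exon length, *Grin1* had 3569 counts in all and *Grin3a* 3533, against 2883 for *Grin3b*. Their order thus depends on this scale. *Grin3b* stood at 53.8, 43.4 and 41.9 CPM in DiO-only and at 45.0, 117 and 215 CPM in double-labelled pools. Double-labelled pools 2 and 3 were high and pool 1 lay inside the DiO-only range (log2 fold change 1.44 ± 0.49, SE; edgeR adjusted p = 0.683). Without double-labelled pool 3 the log2 fold change was 0.79. *Grin3b* shares 32.1% of its exon bases with *Tmem259* on the opposite strand, which stood at 141 ± 9.14 and 194 ± 65.5 CPM, so its level is uncertain. *Grin3a*, of GluN3A, stood level at 115 ± 42.1 and 120 ± 18.6 CPM (log2 fold change 0.06, 95% interval -0.70 to 0.81).

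**Figure D4:**
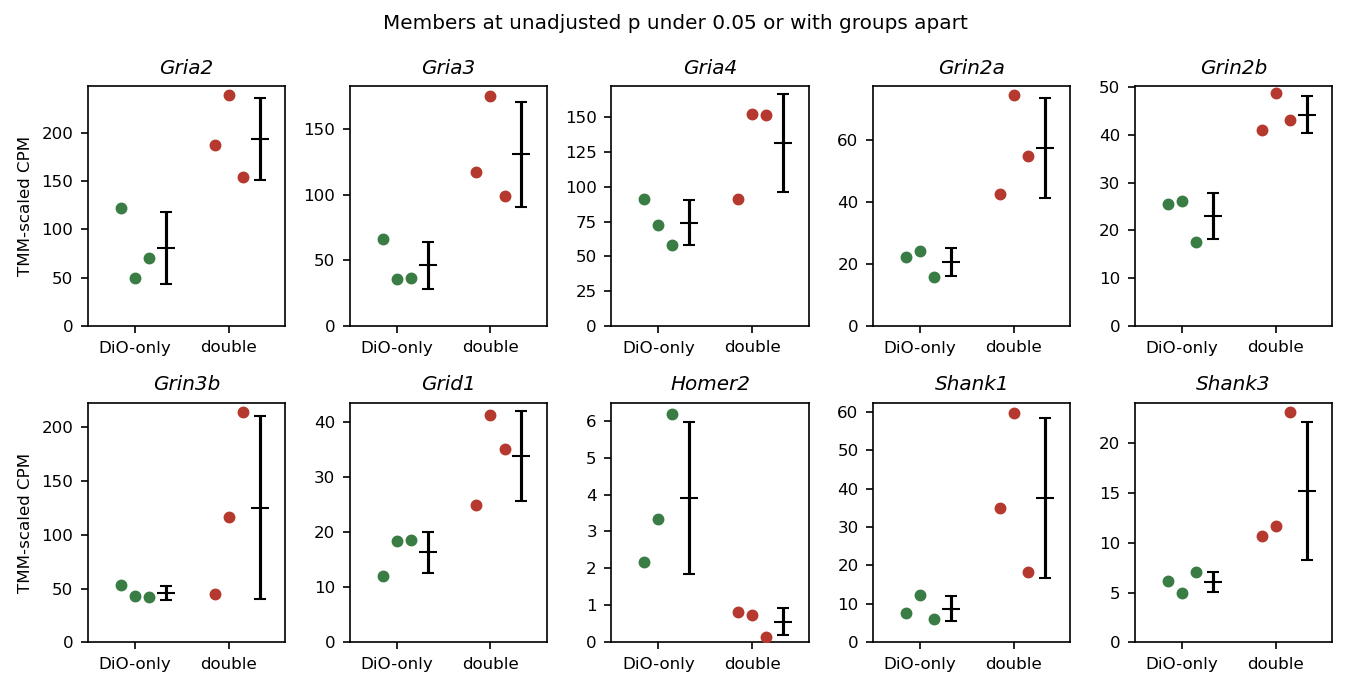
TMM-scaled CPM (y axes, each from 0) of the 10 tested genes with an unadjusted p under 0.05 or groups that did not overlap. Points are pools 1 to 3 from left to right, and black marks give the mean and SD (n = 3). For *Gria4* and *Grin3b* double-labelled pool 1 lies within or at the DiO-only range, and of these 10 only *Homer2* is lower in the double-labelled group.

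The kainate receptor genes gave no separated groups. *Grik5*, of the high-affinity subunit GluK5, was the most abundant of them per kilobase and stood at 50.3, 33.1 and 19.6 CPM in DiO-only and at 38.2, 80.1 and 58.2 CPM in double-labelled pools. Both groups spread widely (log2 fold change 0.77, 95% interval -0.20 to 1.74). *Grik4*, of GluK4, had 16.8 ± 5.93 and 31.8 ± 8.14 CPM, with a log2 fold change of 0.92 and an interval of -0.09 to 1.92. *Grik1*, at 10.9 ± 8.17 and 19.5 ± 11.9 CPM, and *Grik2*, at 12.9 ± 2.02 and 11.8 ± 6.55 CPM, overlapped, although the share of *Grik2* in the kainate level per kilobase was 6.51 to 10.9% in DiO-only and 2.17 to 5.20% in double-labelled pools. *Grik3* ranged from 0 CPM in double-labelled pool 1 to 17.9 CPM in double-labelled pool 2. The delta receptor gene *Grid1*, of GluD1, a synaptic organiser that does not respond to glutamate like the others, stood at 12.1, 18.4 and 18.6 CPM in DiO-only and at 25.1, 41.4 and 35.2 CPM in double-labelled pools. Its groups did not overlap (log2 fold change 1.05 ± 0.44, SE; edgeR adjusted p = 0.778).

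Metabotropic receptor genes were low, and group III receptors, which couple to inhibitory G proteins, made up most of what was found. *Grm7* stood at 16.5, 18.7 and 44.3 CPM in DiO-only and at 12.9, 21.6 and 63.4 CPM in double-labelled pools, with pool 3 highest in both groups. Its log2 fold change of 0.31 turned to -0.64 without double-labelled pool 3. *Grm4* stood at 4.52, 5.35 and 8.76 CPM and at 13.2, 7.69 and 23.3 CPM, with overlap only between DiO-only pool 3 and double-labelled pool 2 (log2 fold change 1.25, 95% interval -0.26 to 2.76). *Grm5*, a group I receptor also found in astrocytes, had 52 of its 92 counts in double-labelled pool 1 and 0 in double-labelled pool 3. *Grm2* had 0 counts in every library, which allows a level of up to 0.194 CPM in DiO-only and 0.206 CPM in double-labelled pools (3 counts over the group, counting error only). It was the only gene of the 44 under 10 counts in total and is reported as not expressed. *Grm3*, another receptor known from astrocytes, had 34 counts, and *Grm8* had 39, all in DiO-only pool 1.

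Auxiliary subunits of AMPA receptors included the most abundant gene of the 44 per kilobase. *Cacng2*, of stargazin, which brings AMPA receptors to the synapse, stood at 159, 161 and 118 CPM in DiO-only and at 154, 343 and 219 CPM in double-labelled pools. Double-labelled pool 1 lay inside the DiO-only range (log2 fold change 0.71, 95% interval -0.07 to 1.48). *Cacng3* stood at 29.7 ± 4.69 and 43.2 ± 28.2 CPM, with only double-labelled pool 3, at 75.7 CPM, above the DiO-only range. *Cacng5*, at 6.05 ± 3.00 and 14.1 ± 8.95 CPM, and *Cnih2*, of a cornichon protein, at 4.64 ± 4.50 and 5.52 ± 4.69 CPM, overlapped. *Cacng4*, *Cacng7* and *Cacng8* had 11, 15 and 66 counts and did not pass the filter. *Cnih3*, of the other cornichon protein, had 20, 4 and 11 counts in DiO-only pools 1 to 3 and 0 in each double-labelled pool. Summed over each group and set against a floor of 3 counts, this gives a bound of 11.0-fold. The bound covers at most counting error and not the spread among pools, because counts were summed over each group. The labels' protocols name no molecular identifiers, so reads need not be separate molecules. This bound and the limits given for *Grm2* are therefore not firm. Fewer genes had a count in double-labelled pools, and the part of this in the zeros of *Cnih3* was not tested. Its counts were too few for the filter, so *Cnih3* was not tested and no difference is read from it.

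The auxiliary genes of kainate receptors did not separate the groups. *Neto1* stood at 19.7, 11.4 and 11.0 CPM in DiO-only and at 0.411, 14.3 and 0.134 CPM in double-labelled pools. Pools 1 and 3 had 2 and 1 counts and pool 2 reached the DiO-only range (log2 fold change -1.57, 95% interval -4.32 to 1.17). *Neto2* stood at 5.55 ± 1.58 and 6.46 ± 6.52 CPM.

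**Figure D5:**
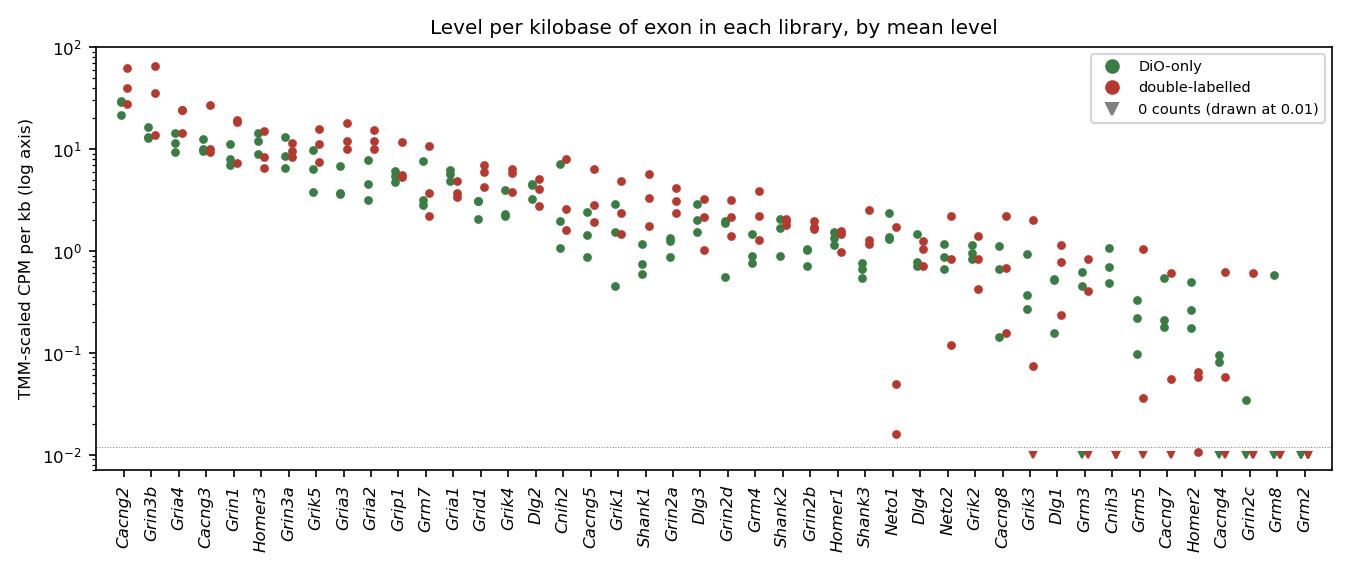
TMM-scaled CPM per kilobase of exon (log axis) of each of the 44 genes in each library, in order of the mean, with libraries at 0 counts drawn as triangles at 0.01. *Cacng2* (mean 34.9) and *Grin3b* (26.1) lead, and neighbouring genes overlap in their ranges.

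Per kilobase over all 6 libraries, *Cacng2* had a mean of 34.9 (21.4 to 62.3), *Grin3b* 26.1 (12.7 to 65.1), *Gria4* 16.3 (9.27 to 24.1), *Cacng3* 13.1 (9.40 to 27.3) and *Grin1* 11.8 (6.89 to 19.1) TMM-scaled CPM per kilobase. Ranges of neighbours in this order overlapped, so the order between them is not fixed by these pools. *Cacng2* ranked 1335 and *Grin3b* 1742 among the 12954 tested genes, so no gene of the set belonged to the most abundant transcripts of these cells.

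The scaffold genes are given by family, and differences between families were not tested. The MAGUK genes, whose products anchor NMDA receptors and stargazin, had a median log2 fold change of 0.0040, and the signs of *Dlg2*, *Dlg3* and *Dlg4* changed with the scaling. *Dlg2*, of PSD-93, the most abundant of them per kilobase, stood at 51.9, 72.5 and 74.1 CPM in DiO-only and at 82.6, 44.6 and 65.8 CPM in double-labelled pools. The groups lay across each other, and the 95% interval of its log2 fold change ran from -0.81 to 0.74, so a 2-fold difference in either direction was outside it. *Dlg4*, of PSD-95, stood at 13.0 ± 5.42 and 13.2 ± 3.58 CPM and *Dlg3*, of SAP102, at 12.4 ± 3.94 and 12.3 ± 6.40 CPM, both with wider intervals that include 2-fold changes. *Dlg1*, of SAP97, was lower in level at 4.29 ± 2.27 and 7.76 ± 4.92 CPM.

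Homer proteins link group I metabotropic receptors to calcium stores. *Homer3* stood at 30.8, 49.8 and 41.2 CPM in DiO-only and at 22.4, 51.6 and 28.5 CPM in double-labelled pools, with overlap. It shares 25.4% of its exon bases with *Ddx49* on the opposite strand, at 49.2 ± 7.70 and 40.8 ± 11.9 CPM. *Homer1* stood at 16.0 ± 2.32 and 16.1 ± 3.84 CPM. *Homer2* had 15, 10 and 36 counts in DiO-only pools and 4, 2 and 1 in double-labelled pools, that is 2.19, 3.34 and 6.19 against 0.822, 0.732 and 0.134 CPM. It passed the filter through the DiO-only pools alone, where it is high, so it had to differ and its fold change is not read as a result.

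SHANK proteins form the deep layer of the postsynaptic density and bind Homer. *Shank1* (ENSMUSG00000038738; chromosome 7, 44310253 to 44360572, plus strand) stood at 7.73, 12.4 and 6.19 CPM in DiO-only and at 34.9, 59.7 and 18.2 CPM in double-labelled pools. The lowest double-labelled pool exceeded the highest DiO-only pool, and the log2 fold change of 2.11 ± 0.55 (SE; 95% interval 0.89 to 3.32; edgeR adjusted p = 0.509) was the largest among the 36 tested genes. *Shank3* stood at 6.13, 5.01 and 7.05 CPM and at 10.7, 11.7 and 23.2 CPM, without overlap (log2 fold change 1.32 ± 0.65, SE; edgeR adjusted p = 0.872). *Shank2* overlapped, at 16.6 ± 6.54 and 20.9 ± 1.24 CPM. *Grip1*, of a protein that binds the tails of GluA2 and GluA3, stood at 38.1, 49.1 and 43.6 CPM in DiO-only and at 94.3, 45.0 and 42.7 CPM in double-labelled pools, where only pool 1 was high. With DESeq2 on all genes the smallest adjusted p in the set were 0.0595 for *Shank1* and 0.0662 for *Gria3*.

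In double-labelled pools 1, 2 and 3, 26, 26 and 24 of the 36 tested genes lay above their DiO-only mean. Relative to that mean, the median log2 deviation of the 36 genes was 0.44, 0.51 and 0.38 in these pools. It was 0.01, -0.09 and -0.01 in DiO-only pools 1, 2 and 3, which lie near 0 by construction because their mean is the reference. The same median over all tested genes ran from -0.05 to 0.04 in the 6 libraries. Double-labelled pool 2 had the highest of these medians and the highest *Gria2*, *Gria3*, *Grin2a*, *Shank1* and *Cacng2*. In that pool 6 of 12 astrocyte markers and 10 of 12 oligodendrocyte markers exceeded every DiO-only pool. *Slc1a2* was among them at 39.9 CPM, against 93.3 and 84.7 CPM in double-labelled pools 1 and 3. Summed astrocyte markers were 2293, 999 and 1675 CPM (scaled to total counts) in double-labelled pools 1 to 3. Summed oligodendrocyte markers were 2883, 1331 and 5620 CPM. Both sums were thus lowest in double-labelled pool 2 within that group, and the part of these markers in the receptor values was not tested. The number of genes at an unadjusted p under 0.05 was 14 without double-labelled pool 1 and 5 without DiO-only pool 3, against 8 with all libraries.

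Other genes around these receptors are described by list, and differences between lists were not tested. Of 36 listed partners of glutamate receptors 26 were tested, 14 higher (53.8%, against 51.3% of all tested genes) and 12 lower, with a median log2 fold change of 0.07. Of them 1 (3.85%, against 3.18% of all tested genes) was higher at an unadjusted p under 0.05. This was *Nlgn3*, of the adhesion molecule neuroligin 3, at 5.76 ± 3.79 CPM in DiO-only and 31.7 ± 10.8 CPM in double-labelled pools (edgeR adjusted p = 0.476). Of 34 other postsynaptic density genes 31 were tested, 19 higher (61.3%) and 12 lower, with a median of 0.12. Of them 3 (9.68%) were higher at an unadjusted p under 0.05 and 0 lower. They were *Camk2b*, of a calmodulin-dependent kinase subunit, at 57.8 ± 32.1 and 175 ± 13.8 CPM, *Begain*, of a PSD-95 binding protein, at 12.7 ± 4.13 and 39.9 ± 20.2 CPM, and *Lin7b* at 14.9 ± 11.1 and 41.3 ± 23.9 CPM.

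Genes of glutamate transport and metabolism were mixed, with 4 of 9 tested genes higher and a median of -0.17. The glial transporter gene *Slc1a2*, which is also on the astrocyte list, stood at 13.3 ± 2.34 and 72.6 ± 28.7 CPM (edgeR adjusted p = 0.308). Among the lower genes, *Slc17a6*, also on the excitatory interneuron list, stood at 26.2 ± 31.5 and 6.84 ± 5.13 CPM. Its DiO-only mean rests on pool 1, at 62.6 CPM. *Glul*, of glutamine synthetase, stood at 375 ± 145 and 230 ± 75.2 CPM. Genes that couple metabotropic receptors to their effectors had 7 of 19 tested genes higher, a median of -0.23 and 0 at an unadjusted p under 0.05 in edgeR. In these 4 lists 0 genes had an edgeR adjusted p under 0.05. *Nlgn3*, *Camk2b* and *Slc1a2* did pass with DESeq2 on all genes (adjusted p = 0.0223, 0.0459 and 0.00042) and with edgeR without the filter on low counts (0.0466, 0.0208 and 0.00029). Those settings called 0.492% and 0.277% of the genes with an adjusted p, and 0 of the 44 genes.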

How the data were processed

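The authors deposited read counts per Ensembl gene, not normalised, for 3 DiO-only and 3 double-labelled libraries. FastQC, HISAT2 and HTSeq were used with mm10, per the submitters' processing notes. Amplification was by a SMART-Seq HT kit, per the labels' protocols, which name no molecular identifiers. Versions, annotation, strand setting and multi-mapping, not given in the sources used here, remain unknown, so reads shared by overlapping genes are uncertain. Gene positions and exon lengths came from GENCODE M21, which held 99.8% of the identifiers.

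Counts were analysed in R 4.3.3. edgeR's filterByExpr by group kept 12954 genes with 99.2% of the counts. After TMM scaling, the 2 groups were tested against each other by edgeR 4.0.16 (quasi-likelihood, robust option, two-sided). Adjusted p-values are Benjamini-Hochberg values over all tested genes, read at a threshold of 0.05. The SE is the log2 fold change divided by the root of F, and 95% intervals used its degrees of freedom. Log2 deviations used a prior count of 2. The test was tested on simulated data.

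The 44 genes and all lists were chosen with earlier results of these data known. Values of every library are given for genes with an unadjusted p under 0.05 or groups that did not overlap and for the most abundant gene of each class per kilobase, among others. From the other lists, genes of smallest unadjusted p were named. Alternatives were other filters and scalings, DESeq2 1.42.0, voom in limma 3.58.1, a replicate block, thinning and leaving out each library. Figures were drawn with matplotlib 3.10.9.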

Additional observations from a re-analysis of the deposited data

How the results depend on the processing

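No gene of the set reached an adjusted p under 0.05 in any of the 16 alternatives, and 24 of the 36 tested genes kept their direction in every alternative that could fit them. The number of genes called over the whole table was 0 in the main edgeR test, 79 without the filter on low counts, 75 with DESeq2 and 23 with the replicate block. The labels do not say that the replicate numbers pair the pools, and deviations of same-numbered pools correlated at 0.074, 0.23 and 0.20 across genes, although every pool correlated best with its own number, which is a hint from the data only.

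The median log2 fold change of the tested genes, 0.65, was 0.78 with the stricter filter of 10 counts in 5 libraries, which left 31 of them, 0.43 with limma voom and 0.53 with the replicate block. It ran from 0.52 to 0.73 when 1 library was left out. Leaving out 1 library gave 5 to 14 genes at an unadjusted p under 0.05 and 10 to 17 with groups that did not overlap, which fewer samples make more frequent.

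Genes near 0 or with uneven counts changed sign. Without the filter *Dlg4* was at -0.0078 and *Homer1* at -0.0031. With total-count scaling *Dlg2* was at 0.0050, *Dlg3* at 0.025 and *Adarb1* at 0.051, and with RLE scaling *Dlg3* was at 0.0023. Upper-quartile scaling gave -0.010 for *Dlg4* and -0.022 for *Homer1*, and DESeq2 gave 0.0048 for *Dlg3*. Under limma voom the values were -1.17 for *Grik3*, -2.20 for *Grm5*, -0.94 for *Neto2*, -0.048 for *Dlg4*, -0.031 for *Homer1* and 0.024 for *Adarb1*. With the replicate block they were -1.64 for *Grik3*, -1.30 for *Grm5*, -0.38 for *Neto2*, -0.00052 for *Homer1* and 0.0082 for *Adarb1*. After thinning, *Grik2* was at 0.056 and *Dlg4* at -0.0095. With 1 library left out, log2 fold changes ran from -0.65 to 0.19 for *Grik2*, -3.67 to 1.07 for *Grik3*, -0.17 to 0.38 for *Grin3a*, -3.82 to 1.31 for *Grm5*, -0.64 to 0.89 for *Grm7*, -0.15 to 0.80 for *Cacng3*, -0.69 to 1.42 for *Cnih2*, -0.88 to 0.72 for *Neto2*, -0.26 to 0.14 for *Dlg2*, -0.46 to 0.33 for *Dlg3*, -0.18 to 0.41 for *Dlg4*, -0.13 to 0.17 for *Homer1* and -0.32 to 0.37 for *Adarb1*. The median of the receptor partners ran from -0.13 to 0.31. The cause of these shifts was not tested.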
